A study of Homo sapiens with 30 samples.

Results

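The 10 genes TNIK, ITGA2, USP13, MAP2K5, FBXO36, TMCC2, MIPOL1, FUT1, TRANK1 and SAMD4A were chosen because their normalized counts were far lower with both antisense oligonucleotides (ASOs) directed at NESPR, a long non-coding RNA, than with a control ASO in 1 of 3 neuroblastoma cell lines. TNIK, ITGA2, USP13 and MAP2K5 were chosen on the NGP line, FBXO36, TMCC2 and MIPOL1 on SK-N-BE(2)c, and FUT1, TRANK1 and SAMD4A on IMR32. They are 10 of 19522 genes whose mean normalized count reached 10 in at least 1 line, the minimum set for testing. The lower values in the line that chose a gene are given as a description only, and tests were made in the other lines.

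All 3 lines are established human neuroblastoma cultures, and all cells, controls included, were lipofected with an ASO at 100 nM. IMR32 received ASO1, ASO2 or the negative control ASO (NCA), with 4 libraries each. SK-N-BE(2)c and NGP received ASO2, ASO10 or NCA, with 3 libraries each, which makes 30 libraries in 9 groups. Each group is a single cell line, nothing in the labels says that libraries of a group came from separate cultures, and the p-values therefore measure only the spread between these libraries. The control columns of SK-N-BE(2)c and NGP carry one spelling for replicate 1 and another for replicates 2 and 3, which could stand for another control oligonucleotide. The NESPR transcript was not analysed here.

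Recovered reads per library ran from 9393587 to 15060356. Markers of adrenergic neuroblastoma, a neuron-like state in which HAND2 is expressed, were present in all libraries. The blood marker PTPRC was at 4.72 or less, the epithelial marker EPCAM at 27.5 or less, and of 6 stromal markers PRRX1 was at 5.92 or less while TWIST1 was at 551 or more. The stromal markers COL1A1 and FN1 reached 962 and 539 in IMR32, and 25.2 and 8.37 in SK-N-BE(2)c. The summed normalized count of 6 adrenergic markers was lower with each ASO than with NCA in every line, from 26967 to 28228 with NCA against 19520 to 20195 with ASO10 in NGP, for example. HAND2 was the largest part of each sum (mean 12800 with NCA in NGP), so the sum does not speak for each marker. ISL1 in SK-N-BE(2)c, for example, ran from 575 to 1000 over all libraries, with an NCA mean of 660. Summed over the stromal markers, counts lay between 672 and 968 in SK-N-BE(2)c, between 1997 and 2605 in NGP, and between 2705 and 3320 in IMR32, lowest with ASO10 in the first pair of lines and with ASO1 in IMR32. The part of either sum in the results below was not tested, and in bulk RNA fewer cells of a state and less RNA per cell cannot be told apart.

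The group joins unlike proteins. TNIK and MAP2K5 are kinases, USP13 removes ubiquitin while FBXO36 belongs to the adaptors that place it, ITGA2 and TMCC2 are membrane proteins, FUT1 builds a cell surface sugar, and SAMD4A binds mRNAs. An ASO pairs with a complementary RNA, and many ASOs direct the enzyme RNase H to cut it, so 2 ASOs with separate sequences against 1 target are commonly used to set shared changes apart from those of a single oligonucleotide.

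Outside the line that chose them, TNIK, MAP2K5 and FBXO36 fell in 4 of 4 comparisons of an ASO with NCA, and USP13 and TMCC2 in 3 of 4. SAMD4A fell in 2 of 2, TRANK1 in 1 of 2 and ITGA2 in 0 of 2. FUT1 fell in 0 of 4 and was called higher in 3, and MIPOL1 was too low to test. Over the lines that had not chosen a gene there were 40 pairs of a gene and an ASO, of which 30 could be tested. Of these 30, 21 were called lower, 4 higher and 5 neither way, a call being a limma adjusted p under 0.05 (Benjamini-Hochberg over all genes tested). The 2 pairs of each gene in a line share their NCA libraries. Without FBXO36, which overlaps another gene, 17 of 26 were lower. FUT1 and SAMD4A in NGP passed the minimum mean only through the groups in which they were higher, and without these 4 pairs 19 of 26 were lower and 2 higher.

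These counts stand beside a high background of genes called in each comparison. In NGP, 3 of the 5 tested genes chosen elsewhere were lower with ASO2, against 28.1% of all 14440 genes tested, and 4 of 5 were lower with ASO10, against 27.6%. These 5 include SAMD4A, lower with both ASOs, and FUT1, the gene called higher with both. Each of them passed the minimum mean only through the groups in which it was higher, so its direction was built into its passing. In SK-N-BE(2)c, 3 of the 4 tested genes chosen elsewhere were lower with ASO2, against 33.4% of 13556 genes, and 3 of 4 with ASO10, against 31.1%. In IMR32, 3 of 6 were lower with ASO1, against 14.4% of 17309 genes, and 5 of 6 with ASO2, against 14.8%. The last count was 3 without ASO2 replicate 4 or NCA replicate 4. With a minimum mean of 50, under which fewer genes were tested, 1 gene was lower with each ASO in NGP. Calls in the higher direction were 1 gene each with ASO2 and ASO10 in NGP (all genes 30.6% and 26.8%), 1 and 0 with ASO2 and ASO10 in SK-N-BE(2)c (33.6% and 27.8%), and 1 and 0 with ASO1 and ASO2 in IMR32 (13.6% and 17.6%). Without NCA replicate 1, whose column is spelled differently, 3 genes were lower with each ASO in NGP and 3 with each ASO in SK-N-BE(2)c. Between the 2 NESPR ASOs, 1 of 6 genes chosen elsewhere differed in IMR32 (21.9% of all genes), 2 of 5 in NGP (58.6%) and 2 of 4 in SK-N-BE(2)c (65.4%).

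**Figure D1:**
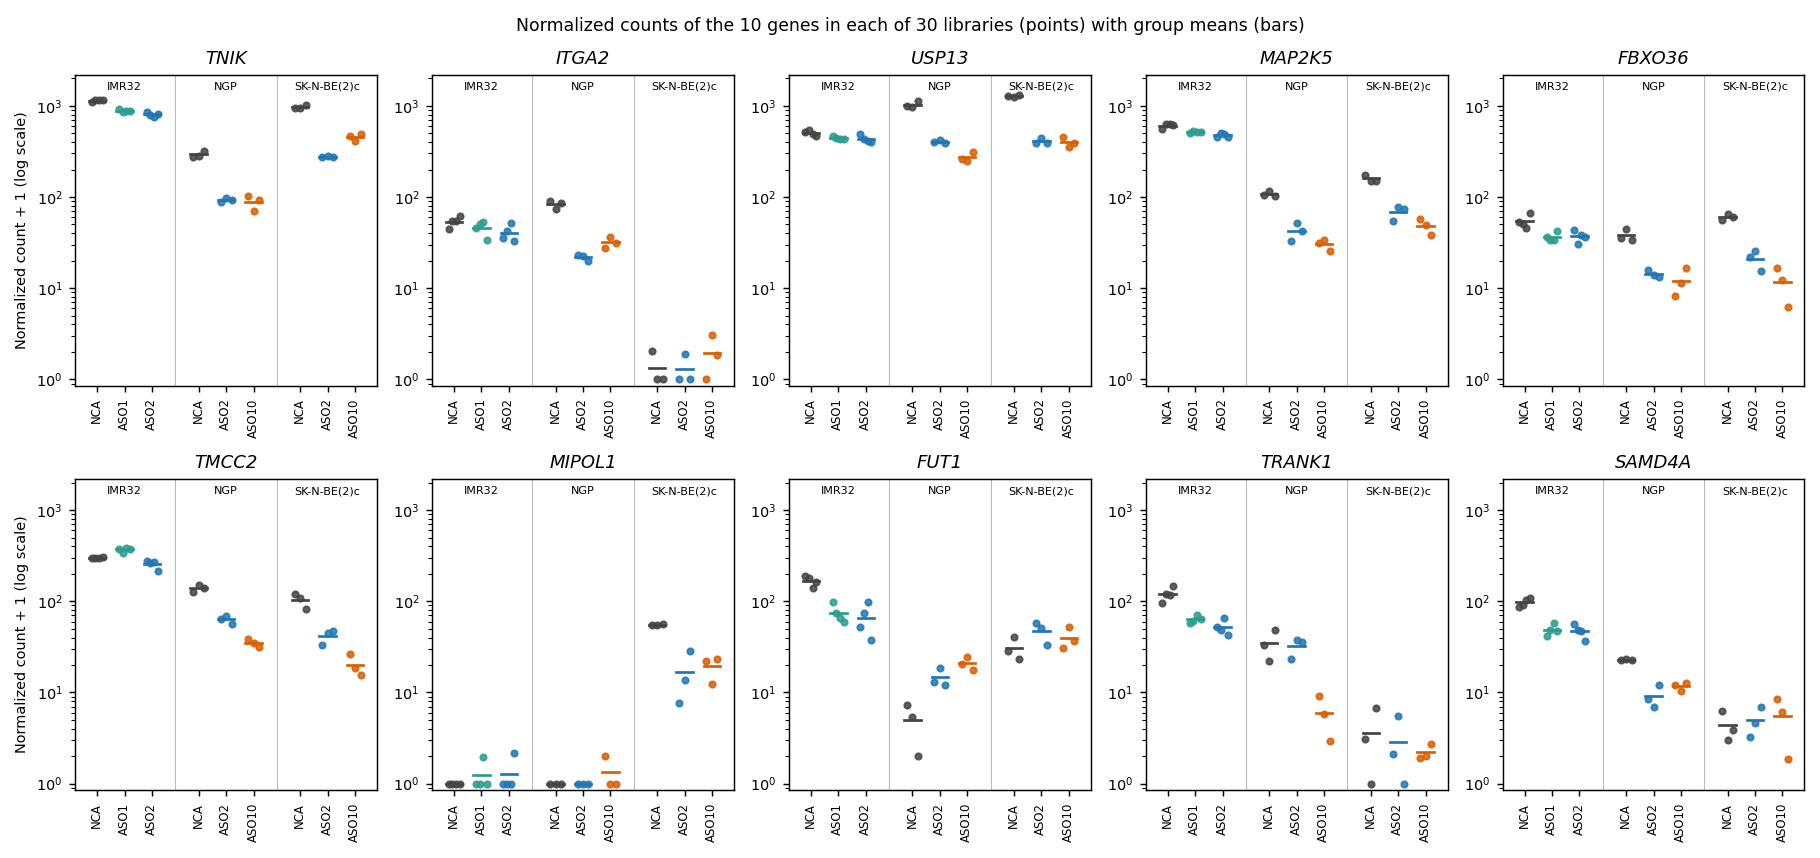
Normalized count plus 1 (log axis) of each of the 10 genes in every library (points), grouped by ASO within each line, with group means as bars. TNIK, USP13 and MAP2K5 were lower with both ASOs in SK-N-BE(2)c and NGP with no overlap with NCA, MIPOL1 was seen almost only in SK-N-BE(2)c, and FUT1 was lower with the ASOs in IMR32 but higher in NGP. IMR32 was scaled apart from the other lines.

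The promoters of 4 genes are shown to give sequence context. TNIK, USP13 and FBXO36 were lower with both ASOs in SK-N-BE(2)c and NGP, and FUT1 moved the opposite way in NGP. MAP2K5 and TMCC2, whose promoters are not shown, were also lower with both ASOs in SK-N-BE(2)c and NGP. The sequences are the 250 bases before the first listed start of each gene in RefSeq (build GRCh38.p14), written 5′ to 3′ on the gene's strand, with matches to searched motifs on either strand in capitals. TNIK is at chr3:171460409-171460658 on the minus strand, USP13 at chr3:179652790-179653039 on the plus strand, FBXO36 at chr2:229922253-229922502 on the plus strand and FUT1 at chr19:48755359-48755608 on the minus strand.
TNIK: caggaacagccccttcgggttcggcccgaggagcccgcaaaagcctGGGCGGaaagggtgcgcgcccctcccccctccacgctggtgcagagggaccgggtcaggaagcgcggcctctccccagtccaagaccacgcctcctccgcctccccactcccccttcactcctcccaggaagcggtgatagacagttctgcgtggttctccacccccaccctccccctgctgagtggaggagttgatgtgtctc
USP13: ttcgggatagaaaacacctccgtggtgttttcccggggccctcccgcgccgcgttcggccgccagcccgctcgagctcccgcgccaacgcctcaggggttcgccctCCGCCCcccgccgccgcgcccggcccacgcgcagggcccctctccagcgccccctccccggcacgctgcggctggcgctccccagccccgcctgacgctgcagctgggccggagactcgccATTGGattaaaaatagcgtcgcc
FBXO36: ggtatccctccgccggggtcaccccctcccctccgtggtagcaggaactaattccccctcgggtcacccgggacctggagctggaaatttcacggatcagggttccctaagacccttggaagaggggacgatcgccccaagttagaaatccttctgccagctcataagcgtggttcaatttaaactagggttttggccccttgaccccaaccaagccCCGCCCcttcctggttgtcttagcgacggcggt
FUT1: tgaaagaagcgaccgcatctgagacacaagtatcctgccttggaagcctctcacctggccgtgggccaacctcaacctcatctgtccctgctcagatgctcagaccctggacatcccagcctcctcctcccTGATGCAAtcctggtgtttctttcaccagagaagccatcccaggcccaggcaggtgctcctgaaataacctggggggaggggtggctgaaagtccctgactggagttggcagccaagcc

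TNIK, USP13 and FBXO36 each held a GC box (GGGCGG), as did ITGA2, TMCC2 and MIPOL1, so 6 of the 10 genes had one, against 42.3% of 27305 RefSeq promoters of the same length. The CCAAT box (CCAAT) was found upstream of USP13 and TMCC2, against 33.0% of promoters. FUT1 held none of these and was the only one of the 10 with TGATGCAA, the composite site of ATF4 and C/EBP factors, which 0.82% of promoters held. The E-box CACGTG was found only upstream of TRANK1 (6.49% of promoters), and the TATA box TATAAA (11.1%), the CRE TGACGTCA (1.77%) and the AP-1 site TGANTCA (6.6%) in none. No motif searched contains another, and MAP2K5 and SAMD4A held none of the 7. A match is a match of letters, and the deposited values hold no measure of binding at these sites.

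TNIK (ENSG00000154310, chromosome 3) encodes a germinal centre kinase that binds TRAF2 and NCK and is a cofactor of TCF and β-catenin in Wnt target transcription. In NGP, which chose it, the normalized counts were 276, 282 and 319 with NCA, 86.3, 95.8 and 91.2 with ASO2, and 102, 69.4 and 92.7 with ASO10. All 6 ASO libraries lay far below the NCA libraries, the means being 3.21-fold lower with ASO2 and 3.32-fold lower with ASO10. It ranked 1 of the 1847 NGP genes (12.8% of those tested) called lower with both ASOs when these were ordered by the smaller of the 2 falls.

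The TNIK counts in SK-N-BE(2)c were 939, 951 and 1020 with NCA, 276, 278 and 275 with ASO2, and 468, 409 and 485 with ASO10. The 3 groups did not overlap, and ASO2 gave the lowest values. The log2 fold change was -1.81 (SE 0.08) with ASO2 (limma adjusted p = 1.17e-16) and -1.10 (SE 0.08) with ASO10 (limma adjusted p = 4.31e-12). ASO2 lay below ASO10 by a log2 difference of -0.71 (limma adjusted p = 1.22e-08). In IMR32 the counts were 1104, 1152, 1142 and 1161 with NCA, 917, 848, 875 and 879 with ASO1, and 864, 795, 753 and 810 with ASO2. The ASO libraries were all below the NCA libraries, and TNIK fell, with a log2 fold change of -0.37 with ASO1 (SE 0.05, limma adjusted p = 1.22e-05) and -0.50 with ASO2 (SE 0.05, limma adjusted p = 5.13e-07).

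Of 17 relatives and partners of TNIK (germinal centre kinases and the TCF and β-catenin set), CTNNB1, which encodes β-catenin, rose in all 6 comparisons, the log2 fold changes running from 0.26 with ASO2 in IMR32 (limma adjusted p = 0.00139) to 0.60 with ASO2 in NGP (limma adjusted p = 3.09e-11). LGR5, a Wnt target and R-spondin receptor, fell in NGP (-0.72 and -0.51 with ASO2 and ASO10, limma adjusted p = 4.85e-07 and 7.39e-05) and in SK-N-BE(2)c (-0.84 and -0.75, limma adjusted p = 2.54e-11 and 4.65e-10). AXIN2, another Wnt target, rose by 0.22 and 0.31 with ASO1 and ASO2 in IMR32 (limma adjusted p = 0.031 and 0.0031). The balance of the list differed by ASO and line. Of 15 tested in IMR32, 3 were lower and 4 higher with ASO1 (14.4% and 13.6% of all genes), and 1 lower and 5 higher with ASO2 (14.8% and 17.6%). Of 15 tested in NGP, 4 were lower and 7 higher with ASO2 (28.1% and 30.6%), and 7 lower and 4 higher with ASO10 (27.6% and 26.8%). Of 12 tested in SK-N-BE(2)c, 6 were lower and 3 higher with ASO2 (33.4% and 33.6%), and 8 lower and 3 higher with ASO10 (31.1% and 27.8%). The list medians ran from -0.44 with ASO10 in SK-N-BE(2)c to 0.22 with ASO2 in NGP, where the medians of all genes were -0.03 and 0.01.

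MAP2K5 (ENSG00000137764, chromosome 15) encodes MEK5, the kinase that activates ERK5, whose targets include MEF2 factors and KLF4. In NGP, which chose it, the counts were 104, 114 and 101 with NCA, 31.6, 50.4 and 41.2 with ASO2, and 30.6, 32.3 and 24.7 with ASO10. The ASO libraries were all below the lowest NCA library, and the means were 2.59-fold and 3.64-fold lower. Its fall ranked 8 in NGP by the same order.

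The MAP2K5 counts in SK-N-BE(2)c were 175, 150 and 150 with NCA, 53.0, 76.1 and 72.0 with ASO2, and 56.7, 48.1 and 37.0 with ASO10. Again no ASO library reached the NCA range, while the ASO2 and ASO10 ranges overlapped. MAP2K5 fell, with a log2 fold change of -1.24 (SE 0.18) with ASO2 (limma adjusted p = 8.28e-07) and -1.74 (SE 0.18) with ASO10 (limma adjusted p = 3.61e-09). The difference between the ASOs, 0.50 on the log2 scale (limma adjusted p = 0.0176), lost its call without ASO10 replicate 3 (0.34, limma adjusted p = 0.128), ASO2 replicate 2 (0.40, limma adjusted p = 0.0908) or ASO2 replicate 3 (0.44, limma adjusted p = 0.061).

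In IMR32 the MAP2K5 counts were 552, 629, 626 and 609 with NCA, 496, 534, 520 and 511 with ASO1, and 455, 502, 489 and 456 with ASO2. Neither ASO overlapped with NCA, and MAP2K5 fell, by log2 fold changes of -0.23 with ASO1 (SE 0.06, limma adjusted p = 0.00569) and -0.34 with ASO2 (SE 0.06, limma adjusted p = 0.000167). HNRNPA1P5, a pseudogene within MAP2K5 on the same strand, had a mean of 1.40 in NGP, 29.3 in IMR32, and 0.200 in SK-N-BE(2)c.

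Among 14 other genes of the MEK5 module and the MAP kinase kinases, higher calls outnumbered lower ones in each comparison with NCA. Of 12 tested in NGP, 0 were lower and 7 higher with ASO2 (28.1% and 30.6% of all genes), and 2 lower and 7 higher with ASO10 (27.6% and 26.8%). Of 12 tested in IMR32, 1 was lower and 5 higher with ASO1 (14.4% and 13.6%), and 0 lower and 8 higher with ASO2 (14.8% and 17.6%). Of 11 tested in SK-N-BE(2)c, 1 was lower and 7 higher with ASO2 (33.4% and 33.6%), and 3 lower and 4 higher with ASO10 (31.1% and 27.8%). List medians ran from 0.07 with ASO10 in SK-N-BE(2)c to 0.46 with ASO2 in NGP, beside -0.03 and 0.01 over all genes. KLF4, an ERK5 target, rose in NGP by a log2 fold change of 1.53 with ASO2 (limma adjusted p = 7.41e-08) and 1.12 with ASO10 (limma adjusted p = 9.05e-06), and in IMR32 by 1.55 with ASO1 (limma adjusted p = 5.54e-07) and 1.08 with ASO2 (limma adjusted p = 5.19e-05). MEF2D rose in SK-N-BE(2)c by 1.22 with ASO2 (limma adjusted p = 7.13e-14) and 0.65 with ASO10 (limma adjusted p = 3.17e-08), while MEF2A fell (-0.55 and -0.27, limma adjusted p = 1.29e-06 and 0.00634).

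USP13 (ENSG00000058056, chromosome 3) encodes a deubiquitinase related to USP5 that acts on Beclin 1 and in the degradation of proteins from the endoplasmic reticulum. In NGP, which chose it, the counts were 994, 975 and 1121 with NCA, 398, 419 and 385 with ASO2, and 258, 247 and 310 with ASO10. The NCA libraries lay far above the rest and ASO10 gave the lowest values, the means being 2.57-fold lower with ASO2 and 3.79-fold lower with ASO10. The SK-N-BE(2)c counts were 1272, 1249 and 1322 with NCA, 388, 446 and 392 with ASO2, and 456, 352 and 386 with ASO10.

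All ASO libraries of SK-N-BE(2)c were thus far below the NCA libraries, and the 2 ASO ranges overlapped. USP13 had a log2 fold change of -1.65 (SE 0.09) with ASO2 (limma adjusted p = 2.05e-15) and -1.69 (SE 0.09) with ASO10 (limma adjusted p = 2.21e-15), and the 2 ASOs differed by 0.04 (95% interval -0.13 to 0.22, limma adjusted p = 0.669), or by -0.07 with libraries rescaled to the same total. USP13 ranked 3 of the 2240 SK-N-BE(2)c genes (16.5% of those tested) lower with both ASOs, above all 3 genes chosen there, and 10 in NGP.

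In IMR32 the ASO and NCA values of USP13 overlapped. The counts were 513, 546, 491 and 462 with NCA, 466, 446, 436 and 430 with ASO1, and 489, 435, 413 and 395 with ASO2, so that the lowest NCA library lay within the range of each ASO. The log2 fold change was -0.18 with ASO1 (95% interval -0.32 to -0.03, limma adjusted p = 0.0626) and -0.22 with ASO2 (95% interval -0.36 to -0.07, limma adjusted p = 0.0199). The ASO1 value was called without ASO1 replicate 1 (limma adjusted p = 0.0442) or NCA replicate 4 (limma adjusted p = 0.0391). The ASO2 call was lost without ASO2 replicate 3 (limma adjusted p = 0.0543), ASO2 replicate 4 (limma adjusted p = 0.0787) or NCA replicate 2 (limma adjusted p = 0.0826).

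Among 11 relatives and partners of USP13, higher calls also outnumbered lower ones in each comparison. Of 10 tested in SK-N-BE(2)c, 2 were lower and 7 higher with ASO2 (33.4% and 33.6% of all genes), and 0 lower and 7 higher with ASO10 (31.1% and 27.8%), with list medians of 0.28 and 0.23 beside -0.02 and -0.03 over all genes. Of 11 tested in NGP, 2 were lower and 4 higher with ASO2 (28.1% and 30.6%), and 1 lower and 5 higher with ASO10 (27.6% and 26.8%). Of 11 in IMR32, 0 were lower and 4 higher with ASO1 (14.4% and 13.6%), and 2 lower and 5 higher with ASO2 (14.8% and 17.6%). USP5, the closest relative, rose by 0.57 and 0.47 there (limma adjusted p = 2.31e-10 and 1.66e-08) and by 0.33 and 0.46 in NGP (limma adjusted p = 2.65e-06 and 2.08e-08). GET4, a partner of the BAG6 chaperone complex, rose in SK-N-BE(2)c (1.11 and 1.57, limma adjusted p = 2.34e-06 and 1.03e-08).

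FBXO36 (ENSG00000153832, chromosome 2) encodes an F-box protein, one of the substrate adaptors of SCF ubiquitin ligases. The line that chose it was SK-N-BE(2)c, with counts of 54.4, 63.5 and 58.8 with NCA, 21.0, 24.5 and 14.4 with ASO2, and 15.8, 11.3 and 5.16 with ASO10. The highest ASO library (24.5) lay well below the lowest NCA library (54.4), and the means were 2.95-fold and 5.48-fold lower. In NGP the counts were 34.6, 43.4 and 32.8 with NCA, 14.9, 12.8 and 12.2 with ASO2, and 7.13, 10.5 and 15.8 with ASO10.

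NGP thus showed the same order of levels, with no overlap between NCA and either ASO. FBXO36 fell there, with a log2 fold change of -1.40 with ASO2 (SE 0.32, limma adjusted p = 0.000584) and -1.70 with ASO10 (SE 0.32, limma adjusted p = 8.01e-05), and it ranked 6 in NGP, above 3 of the 4 genes chosen on that line. In IMR32 the counts were 51.9, 49.3, 45.0 and 66.1 with NCA, 35.6, 32.7, 33.2 and 40.9 with ASO1, and 42.1, 29.2, 37.7 and 35.4 with ASO2. FBXO36 fell, with -0.55 with ASO1 (SE 0.16, limma adjusted p = 0.012) and -0.54 with ASO2 (SE 0.16, limma adjusted p = 0.0125), again without overlap. The ASO1 call was lost without NCA replicate 4 (-0.45, limma adjusted p = 0.0591), and the ASO2 call without NCA replicate 4 (-0.43, limma adjusted p = 0.0613) or ASO2 replicate 2 (-0.45, limma adjusted p = 0.0511).

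The FBXO36 gene overlaps TRIP12, a far more abundant ubiquitin ligase gene on the opposite strand, and whether the reads were counted by strand is not given in the sources used here. Without strand, reads of the 2 genes in the shared stretch cannot be told apart, and FBXO36 is therefore uncertain. TRIP12 fell as well in SK-N-BE(2)c, from a mean of 4663 with NCA to 2556 with ASO2 (log2 fold change -0.87, limma adjusted p = 3.52e-14) and 2740 with ASO10 (log2 fold change -0.77, limma adjusted p = 8.36e-13). In NGP the TRIP12 log2 fold change was -0.76 with ASO2 and -0.86 with ASO10 (limma adjusted p = 1.22e-11 and 1.28e-12). In IMR32 TRIP12 was called neither way, at 0.03 with ASO1 (limma adjusted p = 0.728) and -0.07 with ASO2 (limma adjusted p = 0.33), where FBXO36 was called lower.

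Across the SCF core and 50 F-box genes in all, both directions occurred. Of 46 tested in SK-N-BE(2)c, 16 were lower and 18 higher with ASO2 (33.4% and 33.6% of all genes), and 20 lower and 16 higher with ASO10 (31.1% and 27.8%), with medians of 0.08 and 0.00 beside -0.02 and -0.03 over all genes. Of 48 tested in NGP, 10 were lower and 19 higher with ASO2 (28.1% and 30.6%), and 13 lower and 15 higher with ASO10 (27.6% and 26.8%). Of 49 in IMR32, 6 were lower and 7 higher with ASO1 (14.4% and 13.6%), and 5 lower and 16 higher with ASO2 (14.8% and 17.6%). BTRC, the adaptor that recognises phosphorylated β-catenin, fell in SK-N-BE(2)c (-1.25 and -1.77, limma adjusted p = 5.45e-11 and 9.35e-14) and in NGP (-1.17 and -1.76, limma adjusted p = 2.12e-09 and 1.4e-12). FBXO38 rose in every comparison, from 0.22 with ASO1 in IMR32 (limma adjusted p = 0.0061) to 1.98 with ASO2 in the SK-N-BE(2)c cells (limma adjusted p = 6.61e-18), the lower and upper ends of its 6 values.

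ITGA2 (ENSG00000164171, chromosome 5) encodes the integrin α2 subunit, which pairs with β1 as a collagen receptor. In NGP, which chose it, the counts were 89.2, 73.5 and 84.1 with NCA, 22.3, 21.7 and 18.9 with ASO2, and 26.5, 35.2 and 30.6 with ASO10. The 3 groups did not overlap, and the means were 3.92-fold lower with ASO2 and 2.68-fold lower with ASO10. In IMR32 the counts were 43.7, 53.0, 53.8 and 60.6 with NCA, 44.7, 50.1, 52.1 and 32.6 with ASO1, and 34.2, 41.4, 50.3 and 32.0 with ASO2.

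These IMR32 groups overlapped, and neither ITGA2 difference was called. The log2 fold change was -0.24 with ASO1 (95% interval -0.61 to 0.12, limma adjusted p = 0.329) and -0.42 with ASO2 (95% interval -0.79 to -0.06, limma adjusted p = 0.069). The ASO2 difference was called without ASO2 replicate 3 (-0.54, limma adjusted p = 0.0265) or NCA replicate 1 (-0.51, limma adjusted p = 0.039). ITGA2 had at most 2 reads in any SK-N-BE(2)c library and was not tested.

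Of the other integrin subunits, 17 were listed. Of 13 tested in SK-N-BE(2)c, 6 were lower and 2 higher with ASO2 (33.4% and 33.6% of all genes), and 9 lower and 3 higher with ASO10 (31.1% and 27.8%), with medians of -0.28 and -0.55 beside -0.02 and -0.03 over all genes. In NGP 5 of 14 were lower and 1 higher with ASO2 (28.1% and 30.6%), and 6 lower and 2 higher with ASO10 (27.6% and 26.8%), with medians of -0.15 and -0.28 beside 0.01 and -0.03. In IMR32 4 of 14 were lower and 2 higher with ASO1 (14.4% and 13.6%), and 5 lower and 2 higher with ASO2 (14.8% and 17.6%). ITGA1, the other collagen-binding α subunit beside ITGA2 on chromosome 5, with 30.1 kb between them, fell in NGP, at -0.62 with ASO2 (limma adjusted p = 8.12e-06) and -0.40 with ASO10 (limma adjusted p = 0.00125). ITGB1, the partner of ITGA2, fell in SK-N-BE(2)c (-0.28 and -0.97, limma adjusted p = 0.000188 and 1.8e-13).

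TMCC2 (ENSG00000133069, chromosome 1) encodes a transmembrane and coiled-coil protein of the endoplasmic reticulum. It was chosen on SK-N-BE(2)c, where the counts were 120, 109 and 81.0 with NCA, 32.0, 44.4 and 46.8 with ASO2, and 25.1, 17.4 and 14.6 with ASO10. The 3 groups were apart, with ASO10 lowest, and the means were 2.52-fold and 5.43-fold lower. In NGP the counts were 124, 151 and 141 with NCA, 63.1, 68.1 and 55.6 with ASO2, and 37.7, 34.2 and 30.6 with ASO10.

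NGP repeated the order NCA, ASO2, ASO10 without overlap. TMCC2 fell, with a log2 fold change of -1.14 with ASO2 (SE 0.17, limma adjusted p = 3.75e-06) and -1.99 with ASO10 (SE 0.17, limma adjusted p = 4.89e-10), and the ASOs differed by 0.85 (limma adjusted p = 0.000156). In IMR32 the counts were 295, 295, 298 and 305 with NCA, 376, 341, 385 and 373 with ASO1, and 273, 260, 271 and 214 with ASO2. There the 2 ASOs moved TMCC2 in opposite directions, all ASO1 libraries being above and all ASO2 libraries below the NCA libraries. TMCC2 had a log2 fold change of 0.30 with ASO1 (SE 0.08, limma adjusted p = 0.00451) and -0.23 with ASO2 (SE 0.08, limma adjusted p = 0.0216), and the difference between them was 0.54 (limma adjusted p = 3.38e-05). The ASO2 call was lost without ASO2 replicate 4 (-0.15, limma adjusted p = 0.097) or NCA replicate 4 (-0.22, limma adjusted p = 0.057). TMCC1, one of 2 listed relatives, fell in IMR32, at -0.22 with ASO1 (limma adjusted p = 0.0064) and -0.23 with ASO2 (limma adjusted p = 0.004).

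FUT1 (ENSG00000174951, chromosome 19) encodes the α1,2-fucosyltransferase that makes the H antigen, and outside IMR32 it was called higher or neither way. In IMR32, which chose it, the counts were 188, 179, 138 and 161 with NCA, 96.7, 73.6, 64.5 and 58.5 with ASO1, and 50.9, 73.4, 96.1 and 36.6 with ASO2. The highest ASO library (96.7) lay below the lowest NCA library (138), and the means were 2.27-fold and 2.59-fold lower. In NGP the counts were 6.37, 4.43 and 1.03 with NCA, 12.1, 17.8 and 11.1 with ASO2, and 19.4, 23.8 and 16.8 with ASO10.

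In NGP the direction was thus the opposite, all ASO libraries being above all NCA libraries. The NCA libraries held 7 reads at most (mean normalized count 3.94), and the gene passed the minimum mean of 10 only through the ASO groups, so that a difference was built into its passing. Its log2 fold change was 1.73 with ASO2 (SE 0.45, limma adjusted p = 0.00176) and 2.26 with ASO10 (SE 0.45, limma adjusted p = 0.000133). With no filter the adjusted p by limma was 0.00951 and 0.001, and with a pseudocount of 5 the values were 1.09 and 1.52. The SK-N-BE(2)c counts were 27.2, 39.3 and 22.2 with NCA, 57.5, 49.9 and 32.4 with ASO2, and 29.8, 51.1 and 36.1 with ASO10, with overlapping ranges. FUT1 had a log2 fold change of 0.64 with ASO2 (SE 0.27, limma adjusted p = 0.0373) and 0.39 with ASO10 (95% interval -0.16 to 0.94, limma adjusted p = 0.213). The ASO2 call was lost without ASO2 replicate 1 (0.47, limma adjusted p = 0.173), ASO2 replicate 2 (0.57, limma adjusted p = 0.11), NCA replicate 1 (0.60, limma adjusted p = 0.0843) or NCA replicate 3 (0.46, limma adjusted p = 0.169).

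The effect of ASO10 on FUT1 was smaller in SK-N-BE(2)c than in NGP, by -1.87 on the log2 scale (SE 0.53, limma adjusted p = 0.0179 for the interaction, against 16.9% of 14537 genes called). This rests on NGP control libraries with 7 reads at most, was -1.17 with a pseudocount of 5 (limma adjusted p = 0.0246) and lost its call without SK-N-BE(2)c NCA replicate 2 (-1.65, limma adjusted p = 0.0513). For ASO2 it was -1.09 (SE 0.53, limma adjusted p = 0.166, 16.7% of genes called). FUT1 was chosen on its fall in IMR32, and the difference of that fall from the effects in the other lines was not tested.

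Of 18 fucosyltransferases and GDP-fucose genes listed beside FUT1, 13 were tested in IMR32, of which 4 were lower and 1 higher with ASO1 (14.4% and 13.6% of all genes) and 4 lower and 2 higher with ASO2 (14.8% and 17.6%), with medians of 0.02 and -0.11 beside 0.00 over all genes. Of 12 tested in NGP, 4 were lower and 3 higher with ASO2 (28.1% and 30.6%), and 3 lower and 5 higher with ASO10 (27.6% and 26.8%). Of 13 in SK-N-BE(2)c, 3 were lower and 5 higher with ASO2 (33.4% and 33.6%), and 2 lower and 5 higher with ASO10 (31.1% and 27.8%). FUT9, which makes the Lewis X structure, fell in IMR32 (-0.45 and -0.48, limma adjusted p = 6.55e-05 and 4.23e-05) and in NGP (-0.58 and -0.70, limma adjusted p = 1.77e-05 and 1.58e-06), where FUT1 rose. GFUS, which completes the synthesis of GDP-fucose, rose in NGP by 0.55 and 0.58 (limma adjusted p = 6.08e-06 and 2.74e-06). FGF21, a hormone gene that lies head to head with FUT1, 0.169 kb away on the other strand, was lower in IMR32 as FUT1 was, with means of 27.01 with NCA, 13.85 with ASO1 and 13.45 with ASO2 (log2 fold change -1.06 and -1.01, limma adjusted p = 0.0215 and 0.0249). The other neighbour of FUT1, RASIP1, was called neither way there (-0.14 and -0.19, limma adjusted p = 0.674 and 0.537).

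TRANK1 (ENSG00000168016, chromosome 3) encodes a large protein with tetratricopeptide and ankyrin repeats. In IMR32, which chose it, the counts were 94.4, 120, 118 and 144 with NCA, 56.6, 60.3, 69.2 and 63.5 with ASO1, and 50.9, 47.1, 63.8 and 41.1 with ASO2. Both ASO ranges lay below the NCA range, and the means were 1.91-fold and 2.35-fold lower. In NGP the counts were 31.9, 21.3 and 47.2 with NCA, 22.3, 36.5 and 34.5 with ASO2, and 8.15, 4.75 and 1.97 with ASO10.

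In NGP only the ASO10 libraries stood apart for TRANK1. TRANK1 had a log2 fold change of -2.61 with ASO10 (SE 0.38, limma adjusted p = 3.12e-06), the means differing 6.74-fold, and -0.06 with ASO2 (95% interval -0.86 to 0.73, limma adjusted p = 0.904). The difference of ASO2 from ASO10 was itself called, at 2.54 (SE 0.38, limma adjusted p = 3.5e-06). With a pseudocount of 5 these values were -1.94 with ASO10 (limma adjusted p = 1.68e-06) and 1.88 between the ASOs (limma adjusted p = 2.15e-06). TRANK1 had 6 reads at most in a library of SK-N-BE(2)c and was not tested as a single line. Set against NGP, its ASO effect in SK-N-BE(2)c differed by 2.28 with ASO10 (SE 0.85, limma adjusted p = 0.0677 for the interaction). With ASO2 the difference was -0.22 (SE 0.85, limma adjusted p = 0.894). Neither was called, though the ASO10 value was with a pseudocount of 5 (1.72, limma adjusted p = 0.0065). Both rest on these few reads in SK-N-BE(2)c (mean 1.91), and TRANK1 passed the joint minimum mean only through NGP (mean 23.2). With SK-N-BE(2)c near 0 reads, the call with a pseudocount of 5 cannot show a difference between the lines.

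SAMD4A (ENSG00000020577, chromosome 14) encodes Smaug1, an RNA-binding repressor of translation that works with the CCR4-NOT deadenylase. In IMR32, which chose it, the counts were 86.1, 90.0, 103 and 108 with NCA, 41.1, 47.0, 56.9 and 45.9 with ASO1, and 55.3, 47.1, 45.8 and 35.4 with ASO2. The highest ASO library (56.9) lay below the lowest NCA library (86.1), and the means were 2.03-fold and 2.11-fold lower. In NGP the counts were 21.9, 22.2 and 21.5 with NCA, 7.43, 5.92 and 11.1 with ASO2, and 11.2, 9.51 and 11.8 with ASO10.

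SAMD4A thus lay lower with both ASOs in NGP, without overlap, at a level of few reads. Its log2 fold change was -1.36 with ASO2 (SE 0.35, limma adjusted p = 0.00189) and -0.95 with ASO10 (SE 0.35, limma adjusted p = 0.0252). The ASO10 call was lost without ASO10 replicate 2 (-0.87, limma adjusted p = 0.0759), NCA replicate 1 (-0.95, limma adjusted p = 0.061), NCA replicate 2 (-0.94, limma adjusted p = 0.0611) or NCA replicate 3 (-0.96, limma adjusted p = 0.0515). SAMD4A had 8 reads at most in a library of SK-N-BE(2)c and was not tested. This gene too passed the minimum mean in NGP only through the group in which it is higher, and with no filter its ASO10 difference was not called (limma adjusted p = 0.0778) while that of ASO2 was (limma adjusted p = 0.0111).

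A list of 18 CCR4-NOT and related genes was tested whole in each line. In IMR32, 1 was lower and 5 higher with ASO1 (14.4% and 13.6% of all genes), and 0 lower and 12 higher with ASO2 (14.8% and 17.6%). In NGP, 3 were lower and 12 higher with ASO2 (28.1% and 30.6%), and 5 lower and 8 higher with ASO10 (27.6% and 26.8%). For SK-N-BE(2)c, 3 were lower and 10 higher with ASO2 (33.4% and 33.6%), and 5 lower and 5 higher with ASO10 (31.1% and 27.8%). The list medians ran from 0.05 with ASO10 to 0.41 with ASO2, both in SK-N-BE(2)c, where all genes had -0.03 and -0.02. TOB1, an adaptor of the deadenylase that restrains growth, rose in IMR32 by 0.56 and 0.66 (limma adjusted p = 8.13e-08 and 1.8e-08) and in NGP by 0.94 and 0.93 (limma adjusted p = 7.36e-10 and 8.18e-10).

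MIPOL1 (ENSG00000151338, chromosome 14) encodes a coiled-coil protein and was found at more than 1 read only in SK-N-BE(2)c, which chose it. The counts there were 54.4, 54.4 and 54.9 with NCA, 6.63, 12.7 and 27.6 with ASO2, and 21.4, 11.3 and 22.4 with ASO10. The NCA libraries were nearly equal, the ASO libraries were spread and overlapped each other, and the means were 3.49-fold and 2.98-fold lower. In IMR32 MIPOL1 had 1 read in 1 ASO1 library and 1 in 1 ASO2 library, and in NGP 1 read in 1 ASO10 library, all other libraries being at 0. Recurrence could therefore not be tested for MIPOL1.

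**Figure D2:**
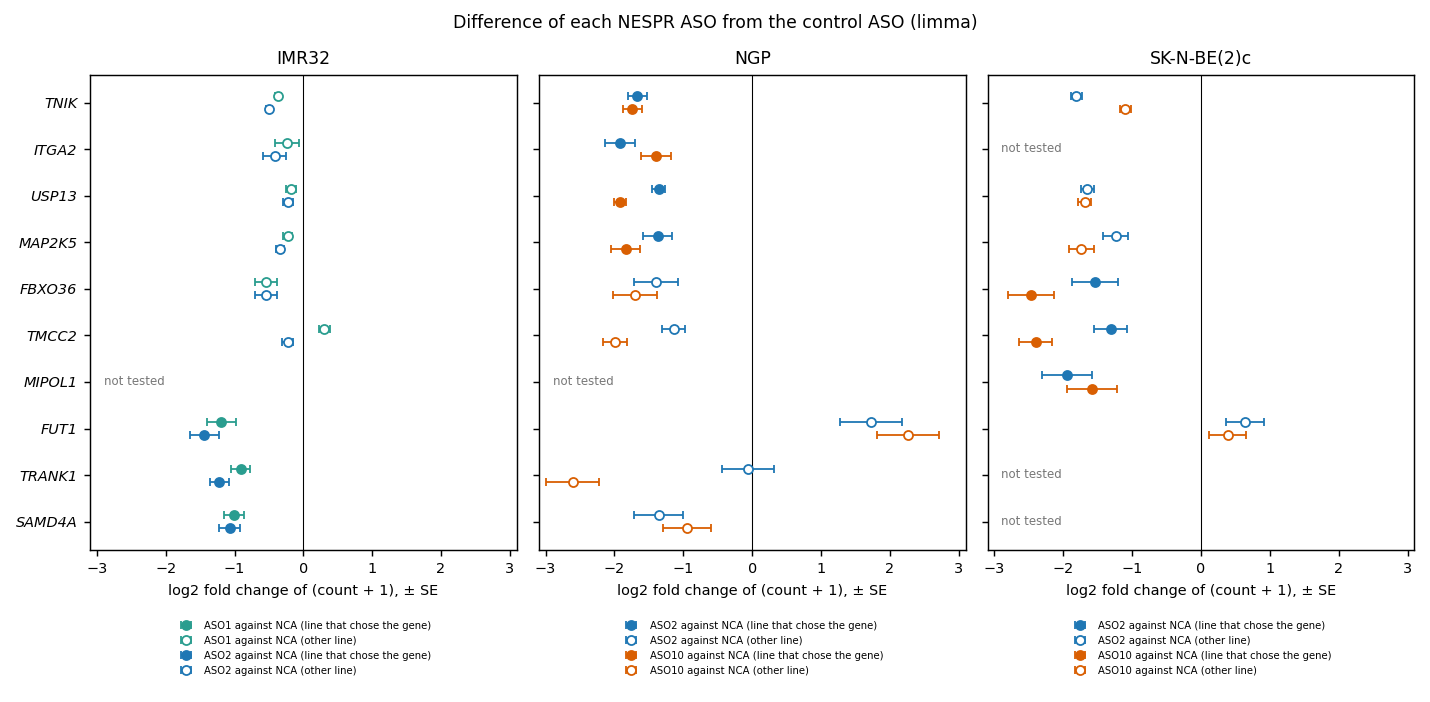
Log2 fold change of each ASO against NCA with its standard error, by gene and line; filled points are the line that chose the gene, open points the other lines. FUT1 lies right of 0 in SK-N-BE(2)c and NGP, TRANK1 in NGP lies at -2.61 with ASO10 and -0.06 with ASO2, and the open points of IMR32 lie between -0.55 and 0.30.

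The falls outside the choosing line can be placed within the spread of all genes. In IMR32, FBXO36 was beyond percentile 5 of all genes with both ASOs (-0.48 with ASO1 and -0.51 with ASO2), and the other 5 genes tested were inside it. In NGP, FBXO36, TMCC2 and TRANK1 were beyond percentile 1 with ASO10 (-1.46). With ASO2 no gene chosen elsewhere passed percentile 1 (-1.52), and FBXO36, TMCC2 and SAMD4A passed percentile 5 (-1.07). In SK-N-BE(2)c, TNIK was beyond percentile 1 with ASO2 (-1.69), and USP13 and MAP2K5 with ASO10 (-1.46).

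**Figure D3:**
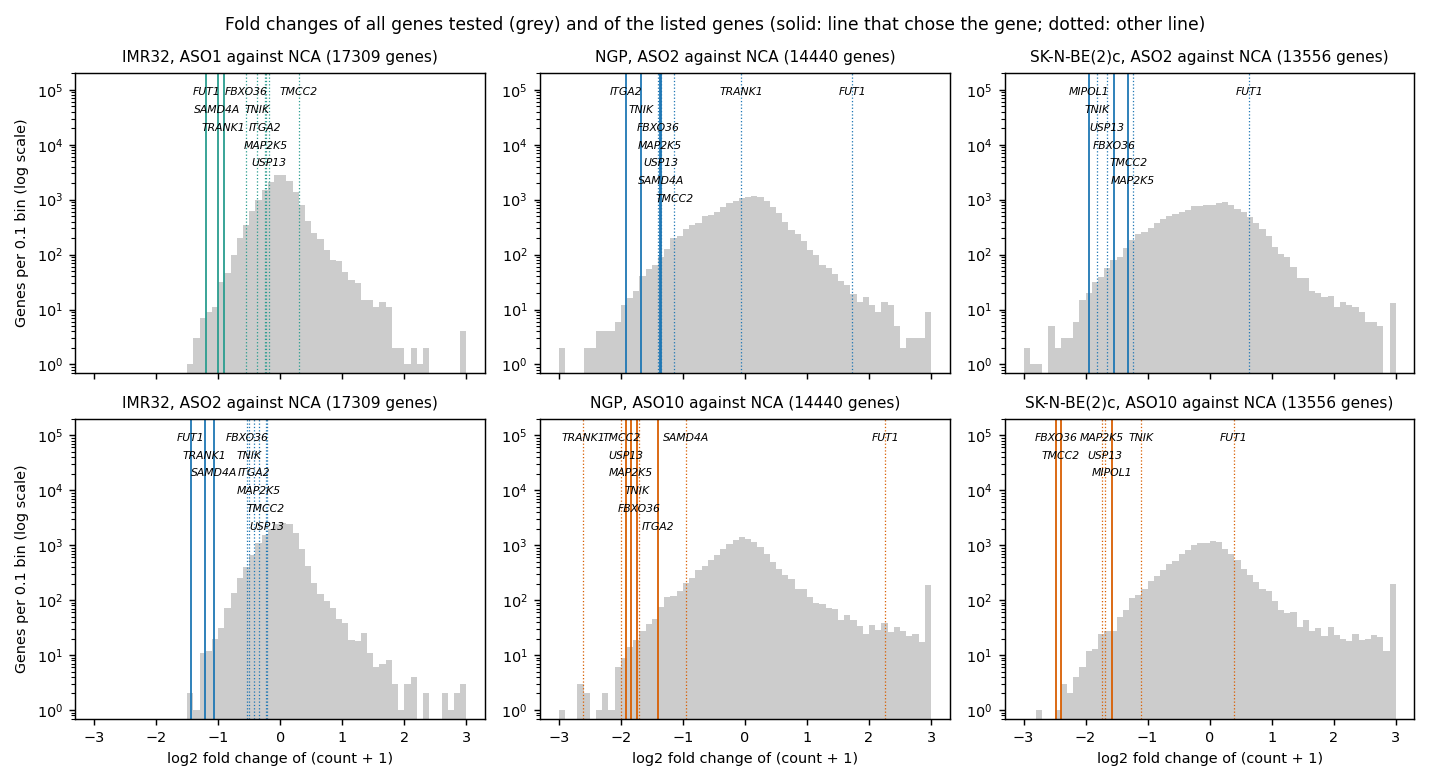
Number of genes per 0.1 bin of log2 fold change (log axis; values beyond 3 in either direction are in the end bins) for each ASO against NCA, with vertical lines at the 10 genes, solid where the line chose the gene and dotted elsewhere. The solid lines lie in the lower tail by choice, and FUT1 lies in the upper tail of NGP.

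The choice was not a strict list of the top ranks. By the smaller of the 2 falls the genes chosen on NGP ranked 1, 7, 8 and 10, those on SK-N-BE(2)c 8, 9 and 36 of 2240, and those on IMR32 2, 7 and 12 of 1233 (7.12% of those tested). The gene next below in NGP was DISC1 (-1.70 with ASO2 and -1.35 with ASO10), below USP13 (-1.36 and -1.92). Those in SK-N-BE(2)c were CHRM2 (-1.46 and -1.31) and PTPRK (-1.36 and -1.29), below TMCC2 (-1.31 and -2.40). Those in IMR32 were IRF1-AS1 (-0.91 with ASO1 and -1.01 with ASO2) and ENSG00000285755 (-0.90 and -1.14), below TRANK1 (-0.91 and -1.22).

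Most of the 10 genes are long. By GENCODE 29 they span 399 kb (TNIK), 354 kb (MIPOL1), 264 kb (MAP2K5), 226 kb (SAMD4A), 137 kb (USP13), 118 kb (TRANK1), 105 kb (ITGA2), 90.8 kb (FBXO36), 57.5 kb (TMCC2) and 7.38 kb (FUT1). Thus 7 of 10 span at least 100 kb, against 18.7% of genes tested in NGP, 17.8% of those in IMR32 and 17.6% of those in SK-N-BE(2)c, where the medians were 28.8, 24.3 and 28.7 kb.

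Long genes were called lower more often in every comparison with NCA. Among genes of at least 100 kb, 49.8% were lower with ASO2 and 47.8% with ASO10 in NGP, 61.4% with ASO2 and 55.0% with ASO10 in SK-N-BE(2)c, and 42.7% with ASO1 and 34.7% with ASO2 in IMR32. With ASO2 in SK-N-BE(2)c the share ran from 18.6% of genes under 10 kb to 74.8% of genes of 300 kb or more, and the median log2 fold change from 0.15 to -0.75. TNIK, in the longest class, had -1.81 there. USP13, in the class of 100 to 300 kb, had -1.65 and -1.69 in SK-N-BE(2)c beside class medians of -0.39 and -0.27. The part of gene length in the falls of the 10 genes was not tested.

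**Figure D4:**
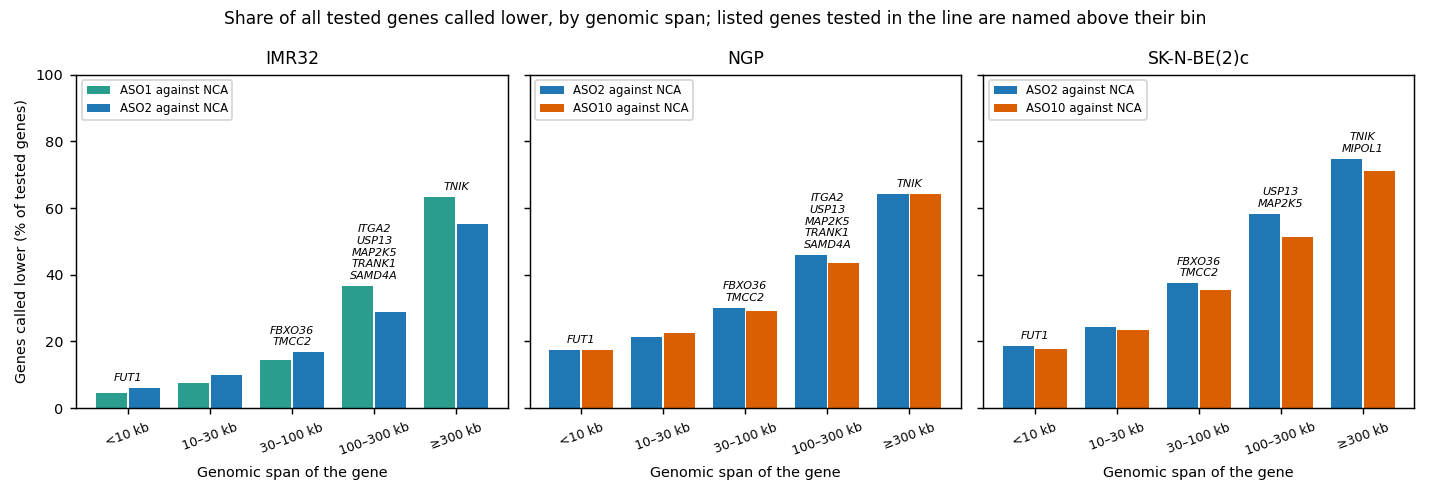
Share of all tested genes called lower with each ASO against NCA, in 5 classes of genomic span, for each line, with the tested genes of the 10 named above their class. In SK-N-BE(2)c the ASO2 bars run from 18.6% under 10 kb to 74.8% at 300 kb or more, and most of the 10 genes are in the longer classes.

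Levels differed widely among the 10 genes. Per kb of exon, the mean normalized count with NCA in NGP was 122 for USP13, 34.3 for TNIK, 24.7 for TMCC2, 21.1 for MAP2K5, 10.4 for ITGA2, 9.37 for FBXO36, 2.75 for TRANK1, 1.80 for SAMD4A and 0.908 for FUT1. In SK-N-BE(2)c the level per kb was also highest for USP13 (152) and TNIK (114). In IMR32 TNIK (134) and MAP2K5 (120) were highest, and ITGA2 (6.67) was the lowest of those detected. Libraries of SK-N-BE(2)c and NGP were scaled together, so their levels can be set side by side, and with NCA TNIK had a mean of 970 in SK-N-BE(2)c against 292 in NGP, and ITGA2 of 0.349 against 82.3.

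The nearest tested genes on either side were taken without those that overlap a chosen gene, as TRIP12 does FBXO36. Distances varied, and AGFG1 lay 2360 kb from FBXO36. Of the 20 genes so taken, 4 were called lower with both ASOs in the line that chose their neighbour. These were 2 of 8 in NGP (ITGA1 and PIAS1, against 12.8% of all genes), 1 of 6 for SK-N-BE(2)c (AGFG1, 16.5%) and 1 of 6 for IMR32 (FGF21, 7.12%), counts too small to set apart from those shares. PEX5L, 5.56 kb from USP13, was lower in NGP with ASO2 (-1.67, limma adjusted p = 1.24e-12) and at 0.00 with ASO10 (limma adjusted p = 0.998). NUAK2, 16.4 kb from TMCC2, rose in SK-N-BE(2)c with ASO2 (1.90, limma adjusted p = 3.98e-07) and was at -0.16 with ASO10 (limma adjusted p = 0.633). MOCS2, 0.900 kb from ITGA2, was called neither way in NGP (0.10 and -0.03, limma adjusted p = 0.27 and 0.743).

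By Pearson's r of log2 values taken relative to the NCA mean of each line, the genes whose pattern over the libraries was most like that of a chosen gene were ZNF106 (0.987) and DMXL2 (0.986) for USP13, DOCK4 (0.979) and ABL2 (0.972) for MAP2K5, and AGK (0.976) and CKAP5 (0.971) for TNIK, each over 30 libraries. For FUT1 they were TMEM121B (0.916) and SLC7A11 (0.901), also over 30. These values describe likeness of pattern over libraries that all genes share, with their ASO groups and depth.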

How the data were processed

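The deposited tables hold 1 normalized signal per gene and library, in 1 table per line: gene counts that the authors divided by a size factor for each library, per the labels. The submitters' processing notes name FastQC 0.11.8, cutadapt 1.18, STAR 2.6.0, HTSeq 0.6.1 and DESeq2 1.42.0 and the build hg19 (GRCh37). The labels' protocols name a stranded total RNA kit and a stranded mRNA kit, without saying which library had which, and whether counting used strand is not given in the sources used here. Low values are whole multiples of 1 step per library, and 100% of values came out as whole reads. IMR32 was scaled alone and the other lines together, so IMR32 levels printed beside those of the other lines are not to be compared with them.

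Libraries were grouped by their titles. Genes were kept where their mean over the libraries of a line reached 10, and tested on log2(value + 1) with limma 3.58.1 (R 4.3.3, trended variances, all 3 groups of a line in 1 fit), with Benjamini-Hochberg adjustment over all genes tested and a threshold of 0.05. Fold changes on this scale understate those of low genes. Differences of the ASO effects between SK-N-BE(2)c and NGP were tested as interactions, only for the genes chosen in IMR32. The test was tried on simulated data with known changes. Alternatives were a pseudocount of 5, no filter, a minimum mean of 50, equal library totals, the replicate number as a block, each library left out, and the quasi-likelihood test of edgeR 4.0.16 on recovered reads. The counts without FBXO36, and without FUT1 and SAMD4A in NGP, were added after seeing the data. Of the IMR32 rows, 174 name no gene (0.172% of the total) and were left out, and 0 per-sample columns went unused.

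The 10 genes and all gene lists (147 relatives and partners in 8 lists) were chosen with earlier results of these data known. Named beside them are, per list and line, up to 3 genes called with 1 sign with both ASOs, the genes ranked next below the chosen ones, the nearest tested neighbours and the genes most alike in pattern; some genes that these rules or the marker lists name are not reported here. Spans are from GENCODE 29 (GRCh38) and promoters from RefSeq, matched by symbol for 10 of 10 genes.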

Additional observations from a re-analysis of the deposited data

Results flagged for a closer look

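For MIPOL1, 1 library of 4 stood apart in IMR32 with ASO1 and 1 with ASO2, the gap making up the whole range of the group (ratio 1 in both), because a single read stood beside libraries at 0. These were 2 of 29 groups of 4 libraries examined. Chance flags about 1 in 20 groups of continuous values, a rate that does not apply to a single read beside libraries at 0. The effect of ASO10 on FUT1 differed between SK-N-BE(2)c and NGP, by -1.87 on the log2 scale, or -1.17 with a pseudocount of 5, and rests on NGP control libraries with 7 reads at most. FUT1 also went in opposite directions with ASO2, at -1.44 in IMR32 and 1.73 in NGP, with every ASO2 library on its own side of NCA, and this difference between the lines was not tested.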

How the results depend on the processing

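Of 1008 values of single genes under the alternatives, 939 kept their direction and their side of the threshold, 33 lost a call, 18 gained one and 18 changed sign. The 1008 include values in the line that chose a gene, whose large falls against NCA came from the choice. The 939 therefore do not describe the tests in the other lines alone. None of the values that changed sign was called. They were, for FBXO36 in IMR32 (ASO1 against ASO2), 0.039 with equal library totals and 0.024, 0.018, 0.062 and 0.011 without ASO1 replicate 2, ASO1 replicate 3, ASO2 replicate 1 and ASO2 replicate 3 (range with 1 library left out -0.109 to 0.062); for SAMD4A there, -0.023 and -0.053 without ASO1 replicate 3 and ASO2 replicate 4 (range -0.053 to 0.156); and for USP13 there, -0.001 without ASO2 replicate 4 (range -0.001 to 0.101). In SK-N-BE(2)c (ASO2 against ASO10), USP13 came to -0.068 with equal totals and to -0.041 and -0.020 without ASO10 replicate 2 and ASO2 replicate 2 (range -0.041 to 0.145), and MIPOL1 to 0.091 without ASO2 replicate 1 (range -0.862 to 0.091). In NGP, TNIK (ASO2 against ASO10) came to -0.094 without ASO10 replicate 2 (range -0.094 to 0.18), and TRANK1 (ASO2 against NCA) to 0.154 and 0.216 without ASO2 replicate 1 and NCA replicate 3 (range -0.341 to 0.216). The ASO2 effect on TRANK1 in SK-N-BE(2)c, where it is near 0 reads, minus NGP came to 0.058, 0.369 and 0.428 without NGP NCA replicate 2, SK-N-BE(2)c ASO2 replicate 3 and SK-N-BE(2)c NCA replicate 3 (range -0.953 to 0.428).

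Among genes chosen elsewhere, the count lower with ASO2 in IMR32 (5) ran from 3 to 6 when 1 library was left out, with 3 without ASO2 replicate 4 or NCA replicate 4. With a minimum mean of 50, under which fewer genes were tested, the counts lower in NGP went from 3 to 1 with ASO2 and from 4 to 1 with ASO10, and the count that differed between those ASOs from 2 to 1. The count that differed between ASO1 and ASO2 in IMR32 (1) was 2 with edgeR, with equal totals and with the replicate block, and 1 to 2 with 1 library left out; TNIK was the gene added. The count that differed between ASO2 and ASO10 in SK-N-BE(2)c (2) was 1 with equal totals and 1 to 2 with 1 library left out. The count of interactions (1, FUT1 with ASO10) was 2 with a pseudocount of 5, with TRANK1 added, and 0 to 2 with 1 library left out. That TRANK1 difference rests on 6 reads at most in SK-N-BE(2)c and cannot show a difference between the lines. The causes were not tested.

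Correlations of same-numbered deviations ran from -0.065 to 0.332, and were not all over 0.1 for any 2 groups. In IMR32, replicate 1 (0.261 to 0.332) and replicate 3 (0.112 to 0.163) went together in all 3 pairs of groups. Replicates 2 and 4 were at 0.055 or less there, and the highest value in the other lines was 0.119. The main test used no replicate term. The replicate block added calls for USP13 with ASO1 in IMR32 (-0.18, limma adjusted p = 0.00799), ITGA2 with ASO2 in IMR32 (-0.42, limma adjusted p = 0.031) and TNIK between ASO1 and ASO2 in IMR32 (0.13, limma adjusted p = 0.0189) and changed no other call. Equal totals moved the median of all genes in SK-N-BE(2)c with ASO2 from -0.02 to -0.15, and the lower share of calls from 49.8% to 61.6% there, from 47.1% to 57.8% between ASO2 and ASO10 there, and from 58.2% to 40.2% between ASO1 and ASO2 in IMR32. With edgeR, 9080 genes were called with ASO2 in SK-N-BE(2)c against 9078 with limma, and between 3948 and 8828 in the comparisons of 2 NESPR ASOs. FUT1 with ASO2 in SK-N-BE(2)c lost its call with equal totals (0.50, limma adjusted p = 0.101), as did SAMD4A with ASO10 in NGP with no filter (limma adjusted p = 0.0778). With 3 or 4 libraries a group and counts of 10 to 50, the intervals of FBXO36, ITGA2, SAMD4A and TRANK1 are wide.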
